A study of Homo sapiens with 9 samples.

Results

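Long noncoding RNAs of 2 kinds were examined in vesicles shed by human embryonic stem cells: MALAT1 and NEAT1, which stay in the nucleus, and KCNQ1OT1, H19 and MEG3, which are transcribed from imprinted regions. The members were every probe set of the array whose annotation names 1 of these 5 genes, 38 of 54675 probe sets and 5 of 21357 gene symbols in all. MALAT1 had 12 probe sets, NEAT1 had 9, KCNQ1OT1 had 5, H19 had 2 and MEG3 had 10. All 9 NEAT1 probe sets were annotated jointly with MIR612 and both H19 probe sets jointly with MIR675, microRNA genes that lie within NEAT1 and H19, so 27 of the 38 carried a single symbol.

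The vesicles came from cells of the H9 line, an established embryonic stem cell line of human origin with no genetic change or drug in any group, grown without feeder cells to 80% confluence with medium collected over 24 hours. MVs (microvesicles, shed from the plasma membrane) were pelleted at 16500g for 1 hour, EXOs (exosomes, of endosomal origin) at 120000g for 2 hours from what remained, and hESEVs are the vesicles without fractionation, pelleted at 120000g for 2 hours according to the labels, while the study's methods give other spins for them. Each group had 3 arrays of the HG-U133 Plus 2.0 type, which reads each RNA with groups of short probes called probe sets. All groups come from 1 cell line, a pellet is defined by its spin and not by a marker, and the cells that released the vesicles were not on these arrays.

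MALAT1 is an abundant RNA of nuclear speckles, the bodies that hold splicing factors. NEAT1 is the scaffold of paraspeckles, which form around it and hold RNA-binding proteins such as NONO and SFPQ. KCNQ1OT1 is transcribed from the paternal copy antisense to KCNQ1 and keeps neighbouring genes silent in cis, whereas H19 and MEG3 are expressed from the maternal copy of their imprinted clusters. MALAT1, NEAT1, KCNQ1OT1 and H19 are on chromosome 11 and MEG3 is on chromosome 14, with the NCBI gene IDs 378938, 283131, 10984, 283120 and 55384.

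The MAS5 signal of a probe set is a linear brightness that was scaled to the same overall level on every array, so it measures an RNA relative to the rest of its pellet. A lower signal cannot be told apart as fewer vesicles with the RNA or less of it per vesicle. Pearson's r of the log2 signals was 0.77 to 0.83 between arrays of a group and 0.65 to 0.76 between arrays of different groups. All 12 measured markers of pluripotent stem cells lay above the background level in MVs, 3 did so in EXOs and 10 in hESEVs. This background level was the 90th percentile of 56 tissue-restricted genes, 857 in MVs, 1336 in EXOs and 1009 in hESEVs. Of all probe sets tested, 15.3% were above it in MVs, 5.28% in EXOs and 11.2% in hESEVs. Of 19775 genes, each at its brightest probe set as the markers were, 5055 were above it in MVs, 1680 in EXOs and 3759 in hESEVs. Of the germ layer and extraembryonic markers, KDR in the mesoderm list was the 1 gene above it in MVs. The counts were 1 of 6 mesoderm, 0 of 8 extraembryonic and endoderm, and 0 of 6 ectoderm markers. Of 6 fibroblast markers, 2 were above the background level in MVs, 2 in EXOs and 3 in hESEVs. Signals of different probe sets are not on a common scale, and the background level serves as a description.

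MALAT1 gave the largest differences among the members, and it gave them at 2 of its 12 probe sets. Probe set 224567_x_at read 10594, 11531 and 11744 in MVs, 517, 626 and 413 in EXOs, and 1827, 795 and 1398 in hESEVs. Every MVs array lay above every hESEVs array, and every hESEVs array above every EXOs array. The difference between MVs and EXOs was 4.46 on the log2 scale (SE 0.16, 95% interval 4.10 to 4.83), with an adjusted p of 1.32e-06 in limma. The EXOs mean of 519 was under the EXOs background level of 1336, so the size of the difference is stated as a bound, at least 8.45-fold from the MVs mean to that level. Probe set 226675_s_at read 3847, 2438 and 3933 in MVs, 77.0, 219 and 97.8 in EXOs, and 540, 595 and 642 in hESEVs. The order of the groups was that of the first probe set, again without overlap, and the log2 fold change between MVs and EXOs was 4.82 (SE 0.41, adjusted p = 0.000184). Its EXOs mean of 131 was also under the background level, and MVs were at least 2.55-fold above that level.

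**Figure D1:**
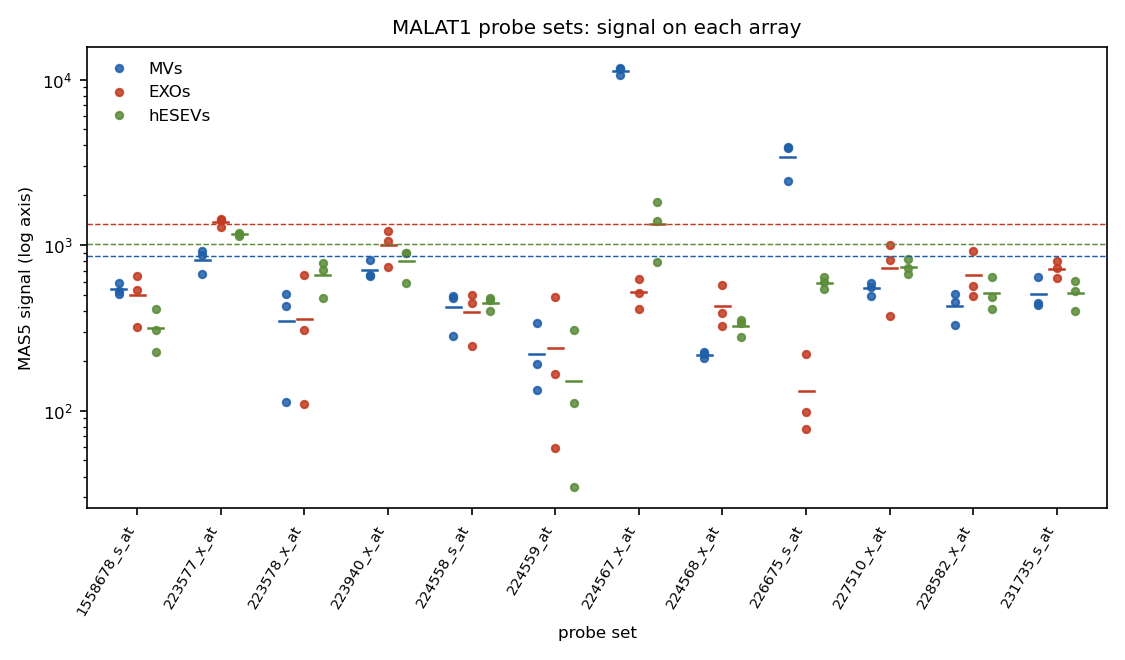
Signal of the 12 MALAT1 probe sets on the 9 arrays, on a log axis. Points are arrays, short bars are group means and dashed lines are the background level of each group (857 in MVs, 1336 in EXOs, 1009 in hESEVs). At 224567_x_at and 226675_s_at the MVs arrays stand between 2438 and 11744, and the other 10 probe sets reach at most 1431 in any group.

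The other 10 MALAT1 probe sets did not show this. Their log2 fold changes between MVs and EXOs ran from -0.94 to 0.28, with a median of -0.39 beside -0.29 over all probe sets tested, and none was called. A call here is an adjusted p under 0.05 with at least a 2-fold difference. At an unadjusted p under 0.05, limma found 1 of these 10, 223577_x_at, and the methods' t-test with the 2-fold limit found 0. At 223577_x_at the signal was 915, 665 and 866 in MVs, 1290, 1431 and 1416 in EXOs, and 1130, 1190 and 1165 in hESEVs. The MVs arrays were below all others there, by a log2 fold change of -0.77 from EXOs (SE 0.17, adjusted p = 0.0245), which is under 2-fold. At 224568_x_at the MVs arrays read 220, 225 and 207 and the EXOs arrays 576, 323 and 387, a log2 fold change of -0.94 (SE 0.43) with an adjusted p of 0.197. So probe sets annotated to the same RNA had their non-overlapping groups in opposite order. At 224568_x_at both means (217 and 429) were under the background level. At 223577_x_at the MVs mean of 815 was under it and the EXOs mean of 1379 was just above it. Non-overlapping groups with EXOs higher were found at 21.7% of all probe sets.

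Of the 12 MALAT1 probe sets 11, among them both bright ones, have the suffix _x_at or _s_at, which the manufacturer gives to probe sets whose probes may match more than 1 transcript. The single MALAT1 probe set without such a suffix, 224559_at, read 337, 192 and 133.2 in MVs and 488, 166 and 59.2 in EXOs, and the groups overlapped. An antisense RNA, TALAM1, overlaps MALAT1, and which strand and which stretch of MALAT1 each probe set reads was not analysed here. A gene with part of its probe sets called was common on this array. Among 304 genes with at least 5 probe sets and at least 1 called, the median share of called probe sets was 20%, and for MALAT1 it was 16.7%.

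Ratios of 3′ to 5′ control signals differed between the groups, and they were taken without regard to the background level. The ratio of the 3′ to the 5′ control probe set of ACTB ran from 22.5 to 25.2 on the MVs arrays, from 5.64 to 6.80 on the EXOs arrays and from 8.48 to 10.2 on the hESEVs arrays. For GAPDH it ran from 2.88 to 2.90 on the MVs arrays, from 1.39 to 1.705 on the EXOs arrays and from 1.89 to 2.22 on the hESEVs arrays. Both ratios ordered the groups as the bright MALAT1 probe sets did, and their part in the MALAT1 result was not tested.

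NEAT1 did not follow the 2 bright MALAT1 probe sets. Its median log2 fold change between MVs and EXOs, -0.42, was near that of the other 10 MALAT1 probe sets, -0.39. None of its 9 probe sets was called higher in MVs by limma (0 also at an unadjusted p under 0.05 and by the methods' t-test), and 1, 224566_at, was called higher in EXOs. That probe set read 518, 494 and 676 in MVs, 858, 1203 and 1394 in EXOs, and 602, 936 and 1169 in hESEVs. The EXOs arrays were above the MVs arrays and the hESEVs arrays overlapped both. The log2 fold change between MVs and EXOs was -1.02 (SE 0.24, adjusted p = 0.0324), just past the 2-fold limit, with both means (563 and 1152) under the background level. This call was lost without MVs replicate 1 (-0.97, adjusted p = 0.0926), MVs replicate 2 (-0.93, adjusted p = 0.0958), EXOs replicate 2 (-0.97, adjusted p = 0.0997) or EXOs replicate 3 (-0.87, adjusted p = 0.103).

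At 238320_at, the NEAT1 probe set with the highest mean, the signal was 723, 589 and 764 in MVs, 1462, 1412 and 1125 in EXOs, and 1059, 1155 and 1228 in hESEVs. The MVs arrays were the lowest, and the other groups overlapped. Its log2 fold change between MVs and EXOs was -0.95 (SE 0.18, adjusted p = 0.0143), under the 2-fold limit, and it passed that limit without MVs replicate 3 (-1.02, adjusted p = 0.0328) or EXOs replicate 3 (-1.06, adjusted p = 0.0176). At 225239_at the MVs arrays read 382, 538 and 501, the EXOs arrays 668, 836 and 782, and the hESEVs arrays 468, 470 and 486. Here EXOs stood above both other groups, with an adjusted p of 0.105 against MVs. The other 6 NEAT1 probe sets had overlapping MVs and EXOs arrays. Group means over all 9 ran from 168 to 822 in MVs and from 165 to 1333 in EXOs, below the background level in both. The EXOs mean of 1333, at 238320_at, was just under the EXOs level of 1336. The hESEVs mean there, 1147, was above the hESEVs level of 1009.

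H19 is the precursor of a microRNA, and its 2 probe sets carry the symbol of that microRNA beside that of H19. The mature sequences of MIR675 are shown because they are part of what the annotation joins to H19, and the array has no readout of the mature forms here. They were taken from RefSeq for GRCh38.p14, where they lie on the minus strand within H19, and the capitals mark the seed, bases 2 to 8.
hsa-miR-675-5p, chr11:1996800-1996822: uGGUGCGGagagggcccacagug
hsa-miR-675-3p, chr11:1996768-1996787: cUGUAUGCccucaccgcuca
The seeds of the 5p and 3p forms differ.

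Both H19 probe sets were lower in MVs than in EXOs on every array, without a call. Probe set 224997_x_at read 611, 874 and 982 in MVs, 1599, 1595 and 1090 in EXOs, and 992, 1148 and 1328 in hESEVs. Probe set 224646_x_at read 532, 319 and 413 in MVs, 707, 744 and 903 in EXOs, and 910, 597 and 870 in hESEVs. At both, the MVs arrays were below all arrays of the other groups, which overlapped each other. The log2 fold changes between MVs and EXOs were -0.80 (SE 0.24, adjusted p = 0.0700) and -0.92 (SE 0.27, adjusted p = 0.0689). limma thus called 0 of 2, with both at an unadjusted p under 0.05, and the methods' t-test with the 2-fold limit found 0. With the 2 probe sets averaged, the difference was -0.86 (SE 0.15) with an adjusted p of 0.00976, still under 2-fold, and the same average was higher in hESEVs than in MVs by 0.71 (SE 0.16, adjusted p = 0.0208). Both have the suffix _x_at, so their probes may match more than 1 transcript. No H19 probe set is left when those marked as shared are taken out. Probe set 224997_x_at stood above the background level in EXOs and hESEVs and below it in MVs.

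KCNQ1OT1 stood under the background level throughout, as most probe sets of the array did. Between MVs and EXOs limma called none of its 5 probe sets (0 at an unadjusted p under 0.05 and 0 by the methods' t-test). Its group means ran from 69.7 to 404 in MVs, from 43.4 to 382 in EXOs and from 32.7 to 358 in hESEVs. Probe set 237249_at read 520, 390 and 302 in MVs, 270, 213 and 261 in EXOs, and 51.4, 270 and 52.6 in hESEVs. The MVs arrays were the highest, and 1 of the 3 hESEVs arrays was as high as EXOs. The log2 fold change between MVs and EXOs was 0.68 with a 95% interval from -0.29 to 1.64. At 243435_at, the KCNQ1OT1 probe set with the highest mean, the arrays read 147, 230 and 80.9 in MVs, 650, 350 and 145 in EXOs, and 343, 323 and 408 in hESEVs. MVs and EXOs overlapped there, and the interval of their difference, -2.91 to 0.51, was wide.

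MEG3 had 10 probe sets, and limma called none of them between MVs and EXOs (0 at an unadjusted p under 0.05 and 0 by the methods' t-test). At 212732_at, its probe set with the highest mean, the arrays read 696, 730 and 478 in MVs, 1041, 729 and 992 in EXOs, and 788, 789 and 678 in hESEVs. The 3 groups overlapped, and the log2 fold change between MVs and EXOs was -0.54 with a 95% interval from -1.11 to 0.02. In the other 9 probe sets MVs and EXOs also overlapped, and their log2 fold changes ran from -1.08 to 0.71. Group means of the 10 lay between 50.9 and 634 in MVs and between 69.5 and 921 in EXOs, below the background level. A missing call does not show equal levels, since the 95% interval of 9 of the 15 MEG3 and KCNQ1OT1 probe sets reached more than 1 log2 unit to each side of the estimate.

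**Figure D2:**
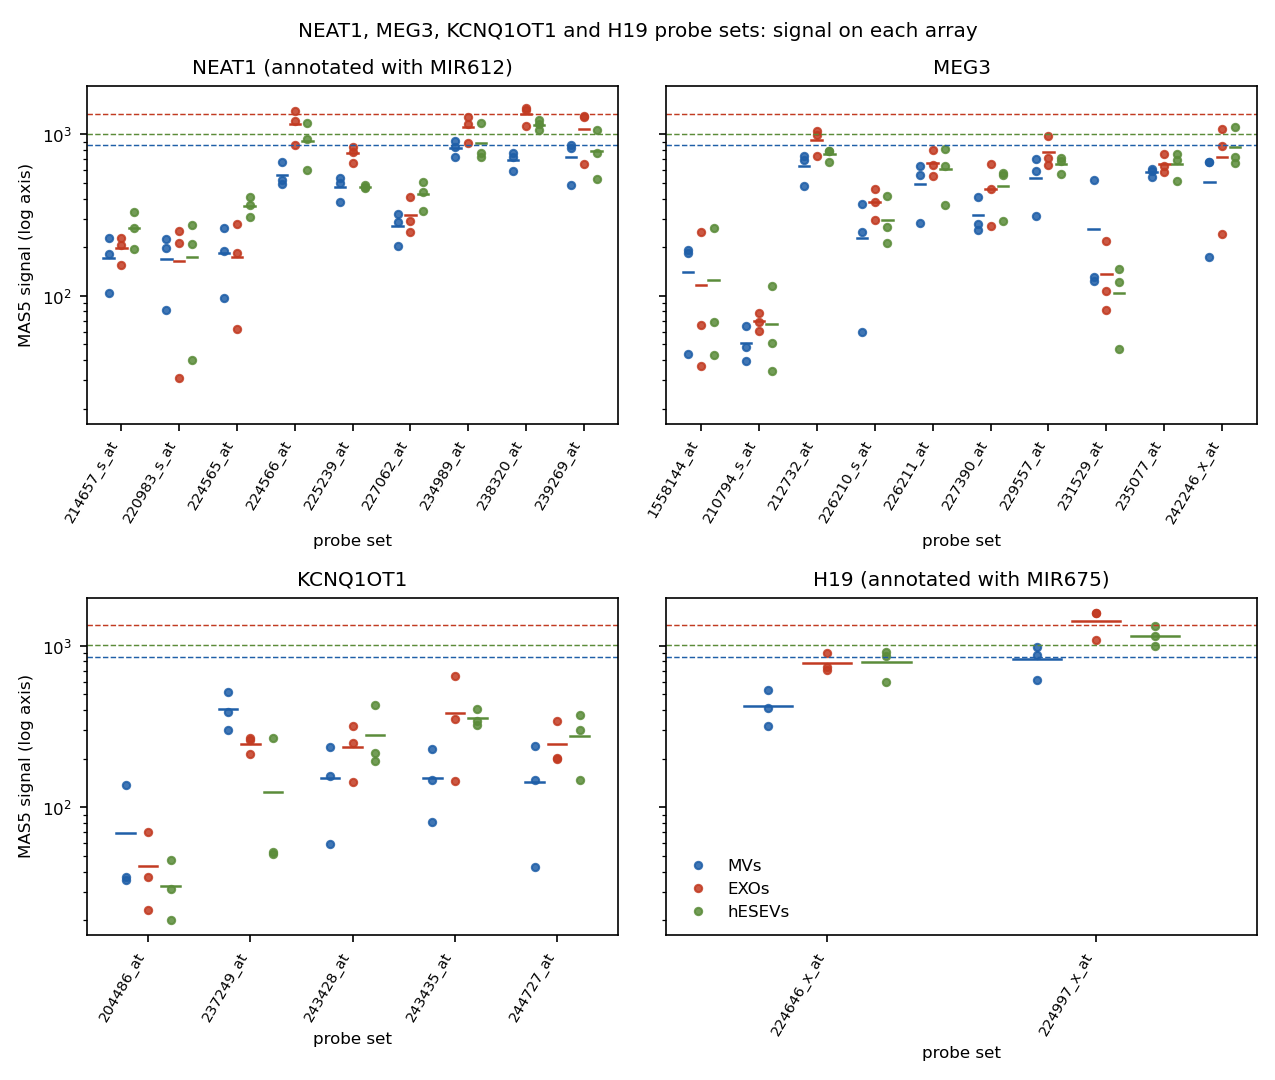
Signal of the 26 probe sets of NEAT1, MEG3, KCNQ1OT1 and H19 on the 9 arrays, on a log axis shared by the 4 panels. Points are arrays, short bars are group means and dashed lines are the background level of each group. The MVs arrays stand below the EXOs arrays without overlap at 224566_at, 225239_at and 238320_at of NEAT1 and at both H19 probe sets.

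Over the 38 probe sets, 2 were called higher in MVs, beside 7.23% of all probe sets tested, and 1 higher in EXOs, beside 1.97%. Groups did not overlap at 3 probe sets that were higher in MVs (13.3% of all probe sets) and at 7 that were higher in EXOs (21.7% of all). These shares are near those of the array as a whole. The median log2 fold change was -0.49 over the members and -0.29 over all probe sets, 26 of the 38 were below 0, and without the 2 bright MALAT1 probe sets the median was still -0.49. The median probe set itself was lower in MVs, so part of each negative value is shared with the whole array. With each array centred on its median, the value at 224566_at of NEAT1 was -0.78 (adjusted p = 0.0790) and was no longer called, the H19 values were -0.69 and -0.57, and the MALAT1 values were 4.70 and 5.05.

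**Figure D3:**
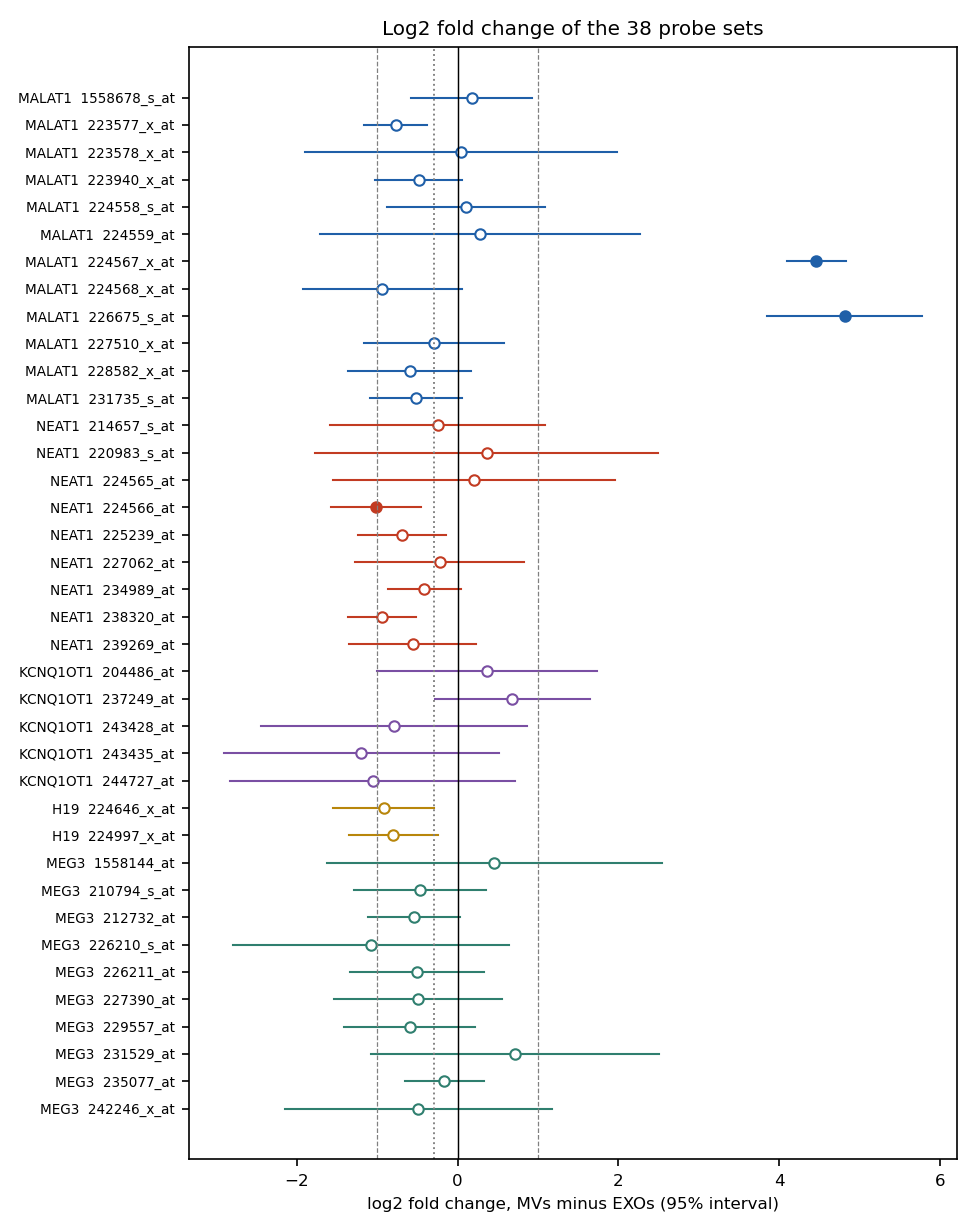
Log2 fold change of each of the 38 probe sets, MVs minus EXOs, with the 95% interval from limma. Filled points were called, dashed lines mark 2-fold in either direction and the dotted line is the median of all probe sets, -0.29. Both called MALAT1 probe sets lie above 4, and the other 36 lie between -1.20 and 0.71.

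The unfractionated hESEVs were compared with each fraction in 1 fit of all 9 arrays, so the comparisons share arrays with each other and with that of MVs and EXOs. Against MVs, the same 2 MALAT1 probe sets were called lower in hESEVs, by -3.16 (SE 0.26, adjusted p = 2.57e-05) at 224567_x_at and by -2.49 (SE 0.37, adjusted p = 0.00180) at 226675_s_at, where the hESEVs mean was under the background level. Calls of this direction covered 4.25% of all probe sets. Limma called 0 of the 38 higher in hESEVs, beside 1.05% of all, with 5 at an unadjusted p under 0.05. The closest was 238320_at of NEAT1, higher in hESEVs by 0.74 (SE 0.17, adjusted p = 0.0264), under 2-fold. Groups did not overlap at 9 members higher in hESEVs, beside 17.0% of all probe sets, and at 4 higher in MVs, beside 12.1%. At 237249_at of KCNQ1OT1 hESEVs were lower than MVs by -2.13 (SE 0.70, adjusted p = 0.0995), which was called without hESEVs replicate 2, the array that read 270 (-2.92, adjusted p = 0.0193).

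Against EXOs, both bright MALAT1 probe sets were called higher in hESEVs, beside 1.95% of all probe sets. The log2 fold change was 2.32 (SE 0.37, adjusted p = 0.00527) at 226675_s_at, where both means (592 and 131) were under the background level of their group, so no fold is given. It was 1.31 (SE 0.26, adjusted p = 0.0230) at 224567_x_at, where the EXOs mean was under the background level. As a bound, the hESEVs mean there was at least 1.003-fold the EXOs level, so it hardly passed that level. The second call was lost without EXOs replicate 1 (1.32, adjusted p = 0.0689), EXOs replicate 3 (1.15, adjusted p = 0.0906), hESEVs replicate 1 (1.04, adjusted p = 0.0797) or hESEVs replicate 3 (1.24, adjusted p = 0.0978). No member was called higher in EXOs by limma, beside 0.103% of all probe sets, with 1 at an unadjusted p under 0.05. Groups did not overlap at 3 members higher in hESEVs (8.70% of all) and at 3 higher in EXOs (8.10% of all). H19 did not separate these groups: at 224997_x_at the difference was -0.29 with a 95% interval from -0.79 to 0.21, and at 224646_x_at it was -0.00199 with an interval from -0.60 to 0.59.

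On the linear scale, and with EXOs values under the background level for MALAT1, the place of hESEVs between EXOs (0%) and MVs (100%) was 7.62% for 224567_x_at and 14.1% for 226675_s_at. The median over the 3949 probe sets called higher in MVs was 21.9%, with a range from 4.42% to 46.9% between the 10th and 90th percentiles. Both MALAT1 probe sets were thus closer to EXOs than the median, within that range. GAPDH, a glycolytic enzyme, was at 25.1% and ACTB, cytoplasmic actin, at 17.1%.

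Most mRNAs for proteins of the bodies that NEAT1 and MALAT1 occupy were called higher in MVs. A gene was represented here by its brightest probe set with a single symbol, and of 19775 genes 10.9% were called higher in MVs and 2.14% higher in EXOs, with a median log2 fold change of -0.23. Where the mean of the dimmer group was under its background level, the fold is given below as a bound from the brighter mean to that level ("at least"), and the list medians include such genes at their fitted values. Of 19 paraspeckle proteins 14 were called higher in MVs and 0 higher in EXOs (0 at an unadjusted p under 0.05), with a median of 1.74. NONO read 11007 ± 1003 in MVs and 1979 ± 188 in EXOs (SD, n = 3), HNRNPH3 3033 ± 211 and 572 ± 21.9, and SFPQ 4554 ± 215 and 878 ± 124, which were 5.56-fold, at least 2.27-fold and at least 3.41-fold higher in MVs. The PSPC1 mRNA, of another core paraspeckle protein, had a log2 fold change of -0.30 (adjusted p = 0.438).

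Of 20 nuclear speckle proteins 14 were called higher in MVs and 0 higher in EXOs (0 at an unadjusted p under 0.05), with a median of 1.62. The splicing factors TRA2B, SRSF1 and SRSF3 were at least 6.06-fold, at least 5.99-fold and 4.95-fold higher. Housekeeping and cytoplasmic mRNAs moved the same way, with 9 of 11 called higher in MVs, 0 higher in EXOs (0 at an unadjusted p under 0.05) and a median of 2.39. In these, GAPDH was 13.1-fold, ACTB 7.75-fold and PGK1, another glycolytic enzyme, at least 3.70-fold higher. The tissue-restricted list, which holds genes typical of differentiated tissues, had 2 of 56 called higher in MVs, KRT10 and FABP6, and 3 higher in EXOs, TAT, PGC and MUC2, with a median of -0.53. The median of the members, -0.49, is over all their probe sets, dim ones included, so it is not on the measure of these lists. At the brightest probe set of each member the log2 fold change was 4.46 for MALAT1, -0.95 for NEAT1, -1.20 for KCNQ1OT1, -0.80 for H19 and -0.54 for MEG3.

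Of 9 RNA-binding proteins known to bind or act with H19 or MEG3, 6 were called higher in MVs and 0 higher in EXOs (1 at an unadjusted p under 0.05), with a median of 1.72. PTBP1, LIN28A and LIN28B were at least 3.09-fold, 6.83-fold and at least 2.60-fold higher, where LIN28A and LIN28B, as DNMT3B in the next list, also count among the markers of pluripotent stem cells. Of 15 chromatin partners and keepers of imprints, 1, ZFP57, was called higher in EXOs (adjusted p = 0.0473 in limma). Both ZFP57 means (26.2 in MVs and 103 in EXOs) were under the background level of their group, so no fold is given. In the same list 7 were called higher in MVs, and the median of the 15 was 0.76. The values were at least 2.70-fold for TRIM28, a corepressor that protects imprints, at least 3.76-fold for RBBP7, a histone-binding protein, and 4.52-fold for DNMT3B, a DNA methyltransferase.

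**Figure D4:**
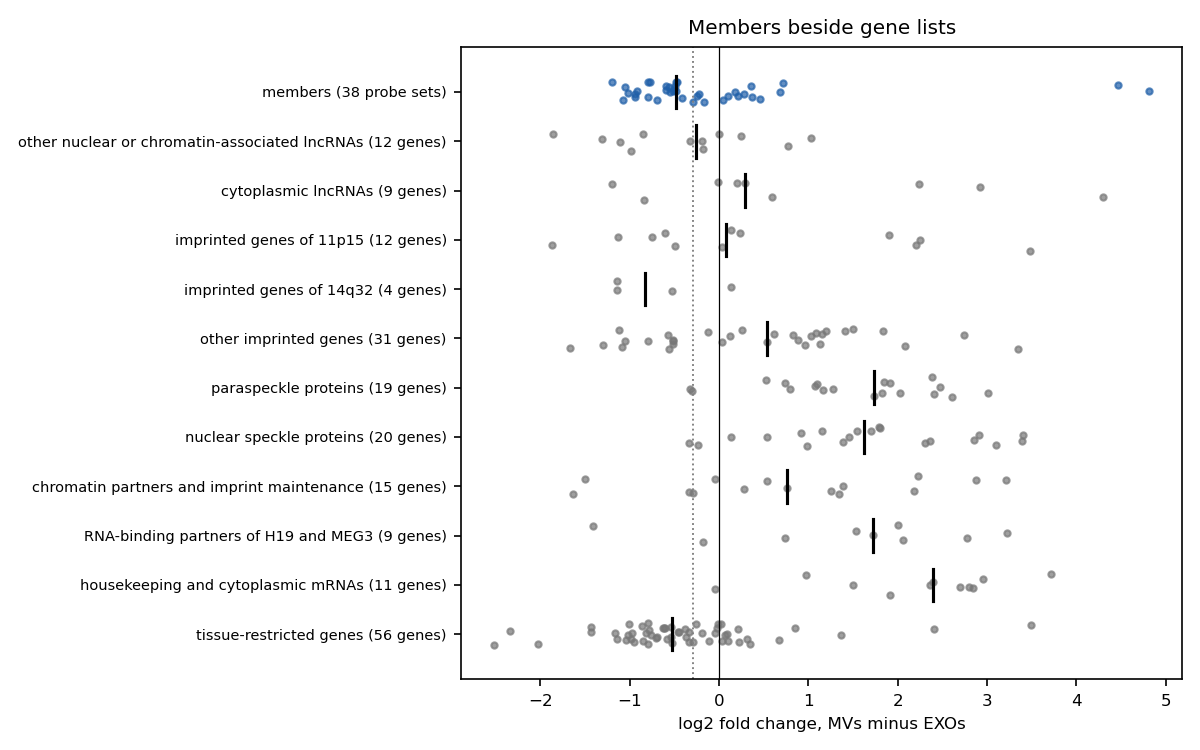
Log2 fold change, MVs minus EXOs, of the 38 member probe sets (blue) and of the genes of 11 lists (grey, 1 probe set per gene), spread vertically to separate the points. Black bars are medians and the dotted line is the median of all probe sets, -0.29. The medians are 1.74 for paraspeckle proteins and 1.62 for nuclear speckle proteins, and -0.49 for the members.

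Other long noncoding RNAs were split by their place in the cell. Of 12 other nuclear or chromatin-associated ones, 1 was called higher in MVs and 1 higher in EXOs, with a median of -0.26. FTX read 1138 ± 152 in MVs and 570 ± 156 in EXOs, a log2 fold change of 1.03 (adjusted p = 0.0386) with EXOs under the background level. FIRRE read 718 ± 51.5 and 1556 ± 136, at least 1.82-fold higher in EXOs. DLEU2 had a log2 fold change of -0.99 (adjusted p = 0.0263), under 2-fold. Of 9 listed as cytoplasmic, 3 were called higher in MVs and 1 higher in EXOs, with a median of 0.29. That list includes LINC-PINT, at -0.84 without a call in limma (adjusted p = 0.109), whose place in it is open to doubt. The RNAs DANCR, ZFAS1 and EPB41L4A-AS1, with hosts of small nucleolar RNAs among them, were at least 6.42-fold, 7.57-fold and at least 3.26-fold higher in MVs. CYTOR was at least 2.14-fold higher in EXOs. The difference between these lists was not tested.

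Other genes listed as imprinted were counted by region. Of 12 genes listed as imprinted in 11p15, the region of KCNQ1OT1 and H19, 3 were called higher in MVs and 0 higher in EXOs. At an unadjusted p under 0.05 in limma, 2 were higher in EXOs, and the median was 0.08. The 3 called were CD81, a tetraspanin that is also used as a vesicle marker, at least 1.55-fold higher, NAP1L4, a histone chaperone, and SLC67A1. The imprinting of the listed genes was not examined, and for CD81 and NAP1L4 it is open to doubt. The EXOs mean of NAP1L4 (279) and both means of SLC67A1 (495 in MVs and 44.6 in EXOs) were under the background level, and no fold is given for them. KCNQ1, the gene within which KCNQ1OT1 lies, read 59.7 ± 12.8 in MVs and 84.3 ± 21.2 in EXOs (SD, n = 3, adjusted p = 0.475). Of 4 imprinted genes of 14q32, the region of MEG3, limma called none (0 higher in MVs and 2 higher in EXOs at an unadjusted p under 0.05), with a median of -0.83. There the paternally expressed DLK1 and DIO3 had log2 fold changes of -1.14 (adjusted p = 0.0699) and -1.14 (adjusted p = 0.111), and MEG9 one of -0.52 (adjusted p = 0.629). Of 31 genes counted as imprinted elsewhere, 7 were called higher in MVs and 2 higher in EXOs, with a median of 0.53. Among the 31 was RNF4, which was not meant to be in the list and entered through an alias in place of SNURF. RNF4 had a log2 fold change of 1.84 without a call in limma (adjusted p = 0.0701), and the median includes it. The genes called higher in MVs included GNAS, a G protein subunit, at least 9.18-fold higher, PPP1R9A at least 2.37-fold and MEST at least 2.37-fold.

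The genes most like each member over the 9 arrays were ranked by Pearson's r of log2 signal among 20452 brighter probe sets of other genes. The arrays form 3 groups, so r mostly follows the group means and is given as a description. For MALAT1 at 224567_x_at they were STRAP (0.998), C1QBP (0.996) and GDI2 (0.995), and 841 probe sets had an r above 0.95. All 3 were higher in MVs than in hESEVs and EXOs, with means of 6495, 2365 and 1536 for STRAP. For NEAT1 at 238320_at they were MBD5 (0.990), NTN5 (0.978) and TMEM252-DT (0.977), with 43 above 0.95. MBD5 had means of 1079 in MVs, 1722 in EXOs and 1628 in hESEVs.

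For H19 at 224997_x_at they were HAL (0.988), WNT8A (0.979) and TMEM120B (0.970), with 17 above 0.95. For MEG3 at 212732_at they were KCNJ14 (0.975), NCK1-DT (0.964) and CADM1 (0.962), with 6 above 0.95. For KCNQ1OT1 at 243435_at they were SLC15A1 (0.964), ARPC5 (0.957) and LOC100506207 (0.9504), with 3 above 0.95. The number of close matches was highest for MALAT1 and lowest for KCNQ1OT1.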

How the data were processed

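RNA of MVs, EXOs and hESEVs was measured on 9 arrays, 3 per group. The deposited values are MAS5 intensities per probe set, linear, not pooled and scaled by the authors to a target of 500 (version not given in the sources used here). The RMA normalization named in the methods needs probe intensities and was not repeated. Depth has no counterpart here, and precision is limited by the number of arrays. The labels give 200g or 300g for the first spin of MVs.

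Signals under 32 were raised to 32 and log2 was taken. After leaving out 62 control probe sets, 54613 were fitted with limma 3.58.1 in R 4.3.3 (lmFit, eBayes with a trend, two-sided), MVs against EXOs on 6 arrays and hESEVs against each on 9. Adjustment was by Benjamini-Hochberg over all probe sets, and a call needed an adjusted p under 0.05 and 2-fold. The t-test of the methods, unpaired, was an alternative on the same values. MVs and EXOs came from 3 cultures per the methods, which arrays share a culture is not given, and p-values measure the spread between these samples.

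Genes were named by the platform annotation: 41091 probe sets had 1 symbol, 1801 several and 11721 none. 41043 of the first were found in the RefSeq table of GRCh38.p14, used for names, neighbours and microRNA sequences. Named genes were each list's up to 3 genes of smallest p for MVs against EXOs, the 3 most alike per member, GAPDH and ACTB, with others (PSPC1, KCNQ1, KDR, ZFP57, CYTOR, MUC2, FABP6) chosen after their values were seen, as were the member probe sets given one by one: those without overlap between MVs and EXOs, the brightest of each member, and the MALAT1 probe set without a shared suffix. The members and lists were chosen with earlier results of these data known. The fit was tested on simulated data, where estimates were unbiased but most moderate changes were missed. Far fewer probe sets were changed there than were called here, so the share missed does not carry over to these data. Alternatives covered floor, scaling, filter, probe sets, test, block and left-out arrays.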

Additional observations from a re-analysis of the deposited data

How the results depend on the processing

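Both bright MALAT1 probe sets kept their direction between MVs and EXOs and stayed called under every alternative in which they were tested, with 3.59 to 4.70 (adjusted p up to 0.00184) at 224567_x_at and 4.32 to 5.26 (adjusted p up to 0.0187) at 226675_s_at. Neither is tested without the probe sets marked as shared, where no member was called higher in MVs (0), nor on its own when the probe sets of a gene are averaged (0 members, MALAT1 at 0.52 with an adjusted p of 0.149), and 1 probe set per gene leaves 1 of them. The lowest count of members called higher in EXOs was 0, with a floor of 100, quantile normalization, median centring, the spike-in shift (18 probe sets), 1 probe set per gene, averaged probe sets, no trend and the adjusted t-test. Of the 35 member probe sets not called between MVs and EXOs, 12 turned sign under at least 1 alternative. The causes of these changes were not tested.

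Over all probe sets, the 1078 called higher in EXOs were 336 with median centring, 685 with no trend, 3840 with limma without adjustment, and 2650 and 445 with the methods' t-test without and with adjustment. Fewer features are tested without shared probe sets (1593 higher in MVs and 716 higher in EXOs), with 1 probe set per gene (2264 and 548) and with averaged probe sets (1769 and 436). For hESEVs against MVs, 993 were called higher in MVs with quantile normalization and 219 higher in hESEVs with median centring. In that comparison, the counts higher in hESEVs and in MVs were 336 and 854 without shared probe sets (0 members), 308 and 1417 with 1 probe set per gene (1 member) and 212 and 895 with averaged ones (0 members). For hESEVs against EXOs, 245 were called higher in EXOs with quantile normalization. The counts higher in hESEVs and in EXOs were 291 and 14 without shared probe sets (0 members), 648 and 34 with 1 probe set per gene (1 member) and 437 and 27 with averaged ones (0 members), and a floor of 100 left 1 member, 226675_s_at.

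Leaving out 1 array at a time, calls between MVs and EXOs were 2988 to 3749 higher in MVs (2 to 2 members) and 571 to 786 higher in EXOs (0 to 2 members). They were 295 to 586 higher in hESEVs (0 to 0 members) and 1820 to 2081 higher in MVs (2 to 3 members) for hESEVs against MVs. For hESEVs against EXOs they were 842 to 1108 higher in hESEVs (1 to 2 members) and 44 to 66 higher in EXOs (0 to 0 members). Among the probe sets described one by one, the sign at 224559_at of MALAT1 turned between MVs and EXOs (-0.47 to 1.05 with 1 array left out) and between hESEVs and EXOs (-1.44 to 0.14), and the other turned signs were in comparisons of hESEVs. Against MVs, 225239_at of NEAT1 was -0.18 with quantile normalization and -0.20 with median centring, and ran from -0.13 to 0.12 with 1 array left out. Against EXOs, 224646_x_at of H19 was 0.0321 with quantile normalization and 0.0188 with median centring, and ran from -0.11 to 0.19 with 1 array left out, where 243435_at of KCNQ1OT1 ran from -0.42 to 0.66.

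Deviations of same-numbered arrays from their group means correlated with r of -0.011 to 0.013 over 9 pairs. For differently numbered arrays r ran from -0.011 to 0.015. The values thus showed no pairing by number, but over all probe sets they cannot show that no arrays share a culture. With the replicate block, 575 probe sets were called higher in EXOs than in MVs, and for hESEVs against EXOs 24 higher in EXOs and 1 member higher in hESEVs, where 224567_x_at had an adjusted p of 0.0515.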
